A study of Homo sapiens with 18 samples.

Results

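Gene expression after 3 h of interleukin-1β (IL-1β) was compared in ECV304 cells given aminaphtone together with the cytokine and in cells given the cytokine alone. The comparison took the 3 arrays labelled for IL-1β with aminaphtone at 3 h and the 3 labelled for IL-1β alone at 3 h, 6 of the 18 arrays in the series. It covered the annotated transcript clusters (probe sets that sum the signal over a gene) whose mean log2 signal over the 18 arrays lay above the 25th percentile (6.193), which were 15796 of the 28869 on the array. The arrays were Affymetrix Human Gene 1.0 ST, and every level below is a log2 signal after robust multi-array averaging (RMA), so that a difference of 1 is a doubling. All 18 samples came from confluent ECV304 cells starved for 24 h in 1% serum and then incubated with 100 IU/ml IL-1β for 1, 3 or 6 h. The treated groups had 6 µg/ml aminaphtone with the cytokine, and the other groups had medium in its place. Every group received the cytokine, so aminaphtone is seen here only in its presence. Replicates are labelled as independent, and the number of arrays limits the precision.

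ECV304 is an established human line whose labels give it endothelial and epithelial traits, and which genotyping has tied to a bladder carcinoma line. Among the keratins KRT8, KRT18 and KRT7 were bright, at percentiles 98.9, 97.8 and 96.7 of the annotated transcript clusters, and KRT5, KRT13 and KRT19 were at 48.9, 47.9 and 34. KRT8 averaged 12.43 with aminaphtone and 12.35 with IL-1β alone. KRT18 averaged 11.71 with aminaphtone and 11.83 with IL-1β alone. VIM, on the mesenchymal list, was at 99.1, above KRT8. The uroplakins UPK1A, UPK2, UPK1B and UPK3A were at 43.4, 41.5, 36.3 and 30.3, GATA3 at 32.8 and CDH1 at 30.7. Of the urothelial and epithelial markers, 15 of the 16 on the array lay above the signal filter and KRT20 lay under it. Of the endothelial markers, 8 of 15 lay above the filter, with ENG at percentile 79.4 and ESAM at 73.7. PECAM1, KDR, TEK, VWF, ERG, EMCN and FLT1 lay under it. Above the median of the annotated transcript clusters were 5 of these 16 epithelial and 4 of the 15 endothelial markers. PECAM1, an adhesion molecule of platelets and endothelium, averaged 5.25 with aminaphtone and 5.41 with IL-1β alone. The mean level over the endothelial list ran from 6.37 to 6.53 with aminaphtone and from 6.54 to 6.67 with IL-1β alone. Those ranges only just failed to overlap, and the mean includes the markers under the filter. The groups did not overlap in 12.6% of all transcript clusters tested. Of the endothelial markers, 0 were called in limma at 3 h, and 1, CDH5, had an unadjusted p under 0.05. Over the epithelial list the mean level ran from 8.1 to 8.3 with aminaphtone and from 8.08 to 8.31 with IL-1β alone. Over the mesenchymal list it ran from 6.48 to 6.52 with aminaphtone and from 6.51 to 6.62 with IL-1β alone. Over the leukocyte list it ran from 5.92 to 6.07 with aminaphtone and from 5.98 to 6.11 with IL-1β alone, and PTPRC, the pan-leukocyte antigen CD45, lay under the filter at 3.63 with aminaphtone and 3.65 with IL-1β alone. The part of cell composition in the differences below was not tested, and fewer cells of a type cannot be told apart from less RNA per cell.

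IL-1β acts through its receptor IL1R1 and the adaptor MyD88, which switch on NF-κB and the MAP kinases. In endothelial and epithelial cells these drive a fast wave of chemokine, cytokine and adhesion molecule genes, which feedback inhibitors then dampen. Aminaphtone is a naphthohydroquinone given for disorders of the capillaries, where inflammatory mediators and vasoconstrictor peptides act on the vessel wall.

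At 3 h a small set of genes differed between the groups. TNFSF18, CCL22 and OXTR, which encode a T cell co-stimulatory ligand, a chemokine and the oxytocin receptor, fell with aminaphtone. CNNM4, MERTK and KHDRBS3, which encode a magnesium transporter, a receptor tyrosine kinase and an RNA-binding protein, rose. These 6 were the transcript clusters that passed an adjusted p of 0.05 in limma, 0.038% of those tested, with 0.019% higher and 0.019% lower. Subtracting the array median left 2 calls that were higher and 0 that were lower. At an unadjusted p under 0.05 there were 1027 transcript clusters (6.5%), of which 806 were higher (5.1%) and 221 lower (1.4%) with aminaphtone. The groups did not overlap in 12.6% of the transcript clusters tested (7.58% higher and 4.99% lower), and with 3 arrays against 3 an exact permutation test of a single gene cannot go below 0.1.

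The windows around the RefSeq start sites of TNFSF18, CCL22, CNNM4 and MERTK are shown for the sequence context of genes called in each direction. Of the called genes whose windows were searched, these 4 have a single start in the table used. Each window runs from 250 bases before the start to 50 after it in GRCh38.p14. TNFSF18 lies at chr1:173050892-173051191 on the minus strand and CCL22 at chr16:57358533-57358832 on the plus strand. CNNM4 lies at chr2:96760652-96760951 and MERTK at chr2:111898357-111898656, both on the plus strand. Capitals mark a match to one of the motifs searched.
TNFSF18: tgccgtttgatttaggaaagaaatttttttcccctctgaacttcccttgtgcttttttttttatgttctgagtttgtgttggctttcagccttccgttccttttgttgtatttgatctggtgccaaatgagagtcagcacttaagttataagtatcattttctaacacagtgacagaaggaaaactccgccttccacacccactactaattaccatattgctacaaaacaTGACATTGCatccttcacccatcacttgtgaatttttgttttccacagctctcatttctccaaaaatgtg
CCL22: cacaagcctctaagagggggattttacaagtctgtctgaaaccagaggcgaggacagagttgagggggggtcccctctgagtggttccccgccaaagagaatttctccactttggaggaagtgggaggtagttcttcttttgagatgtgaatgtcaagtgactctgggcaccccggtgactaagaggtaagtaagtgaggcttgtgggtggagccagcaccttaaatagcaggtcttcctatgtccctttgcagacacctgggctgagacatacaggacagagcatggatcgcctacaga
CNNM4: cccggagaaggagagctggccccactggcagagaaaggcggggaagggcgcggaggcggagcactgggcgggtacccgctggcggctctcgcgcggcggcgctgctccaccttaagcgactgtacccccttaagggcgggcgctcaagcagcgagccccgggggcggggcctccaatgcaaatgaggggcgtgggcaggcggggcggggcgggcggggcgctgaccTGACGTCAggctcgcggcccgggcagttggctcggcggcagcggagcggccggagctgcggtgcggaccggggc
MERTK: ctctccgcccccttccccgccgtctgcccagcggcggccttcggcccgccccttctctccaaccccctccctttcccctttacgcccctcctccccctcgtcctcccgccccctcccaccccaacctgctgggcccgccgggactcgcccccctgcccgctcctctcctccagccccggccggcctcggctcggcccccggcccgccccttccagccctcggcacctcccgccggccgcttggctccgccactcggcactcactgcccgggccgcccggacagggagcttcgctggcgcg
The CNNM4 window had a GC content of 76% and the MERTK window 78.3%, and the windows of the lower genes had 38% for TNFSF18 and 52% for CCL22. Over 35116 such windows the median was 58.7%, with quartiles at 47% and 68%, so TNFSF18 lay below the lower quartile and both higher genes above the upper one. This contrast rests on 4 windows with no test, and it did not hold among all named genes. The windows of OXTR, which fell, had 59.3%, 67.7% and 46.3%, and among named genes with negative differences TGFB1I1 reached 77.7% and AGAP2 72%. Among named genes with positive differences SAMD4A went down to 49.7% and PTCH1 to 53.3%. The motifs, searched on both strands, were the NF-κB site (GGGA and TTCC with any 2 bases between them), the AP-1 site TGANTCA, the cyclic AMP response element TGACGTCA, the antioxidant response element TGACNNNGC and the TATA box TATAAA. In that order they occur in 1.61%, 7.71%, 1.85%, 13.3% and 11.5% of all windows, and the letters of the antioxidant element can overlap those of the cyclic AMP element. CNNM4 held the cyclic AMP element, whose first base lies at -24 from the start. TNFSF18 held an antioxidant match, TGACATTGC, whose first base lies at -20. CCL22 and MERTK held no match to these letters in this window. Windows were searched for 14 of the 15 higher and 12 of the 15 lower genes that the naming rule took. For the named genes the search left out the windows of 1 chromosome, while the shares over all windows include them. KHDRBS3, which was called, TNFRSF11B and PTP4A3 were among the named genes without a window in the search. The NF-κB letters occurred in 0 of the 14 and in 1 of the 12, and the antioxidant letters in 5 of the 14 and in 3 of the 12. These counts take a gene with a match in any of its windows. The shares above are of single windows, so the counts cannot be set directly against them.

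The largest difference among the calls was that of TNFSF18, which binds GITR on T cells. It had 6.94, 7.3 and 7.38 on the aminaphtone arrays, against 9.03, 9.69 and 9.16 on the arrays with IL-1β alone. The groups were far apart, with every aminaphtone array more than 1 unit below every array without it. The 95% confidence interval of the log2 difference of -2.09 ran from -2.75 to -1.42 (SE 0.316, limma adjusted p = 0.0359). CCL22, a chemokine for cells that carry CCR4, had 7.33, 7.45 and 7.03 with aminaphtone, against 7.99, 8.73 and 8.5 with IL-1β alone. All 3 aminaphtone values lay below the lowest of the others, and the group without aminaphtone was the more spread. The log2 difference was -1.14 (95% interval -1.53 to -0.75, limma adjusted p = 0.0359). OXTR, the G protein-coupled receptor for oxytocin, had 7.92, 7.89 and 8.16 with aminaphtone, against 8.81, 8.57 and 8.66 with IL-1β alone. Its groups did not overlap either, and its log2 difference of -0.69 (SE 0.113, limma adjusted p = 0.0359) was the smallest of the 3 genes that fell.

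CNNM4, a magnesium transporter of the basolateral membrane in epithelia, had 9.73, 9.6 and 9.37 with aminaphtone, against 8.29, 8.76 and 8.67 with IL-1β alone. The groups did not overlap, and the signal was 2-fold higher with aminaphtone (log2 difference 1, SE 0.149, limma adjusted p = 0.0359). MERTK, a receptor of the TAM family that mediates uptake of apoptotic cells and restrains innate signalling, had 8.78, 8.71 and 8.78 with aminaphtone, against 7.95, 7.84 and 7.95 with IL-1β alone. Both groups were tight, with standard deviations of 0.0377 with aminaphtone and 0.0609 with IL-1β alone. The signal was 1.79-fold higher with aminaphtone (log2 0.84, SE 0.143, limma adjusted p = 0.0489). That SE pools the spread of all 6 groups, and with IL-1β alone at 1 h the standard deviation was 0.385. KHDRBS3, a STAR family protein that regulates splicing, had 9.56, 9.39 and 9.44 with aminaphtone, against 8.67, 8.83 and 8.93 with IL-1β alone. No array of one group reached the range of the other, and the signal was 1.57-fold higher with aminaphtone (log2 0.65, SE 0.102, limma adjusted p = 0.0359).

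**Figure D1:**
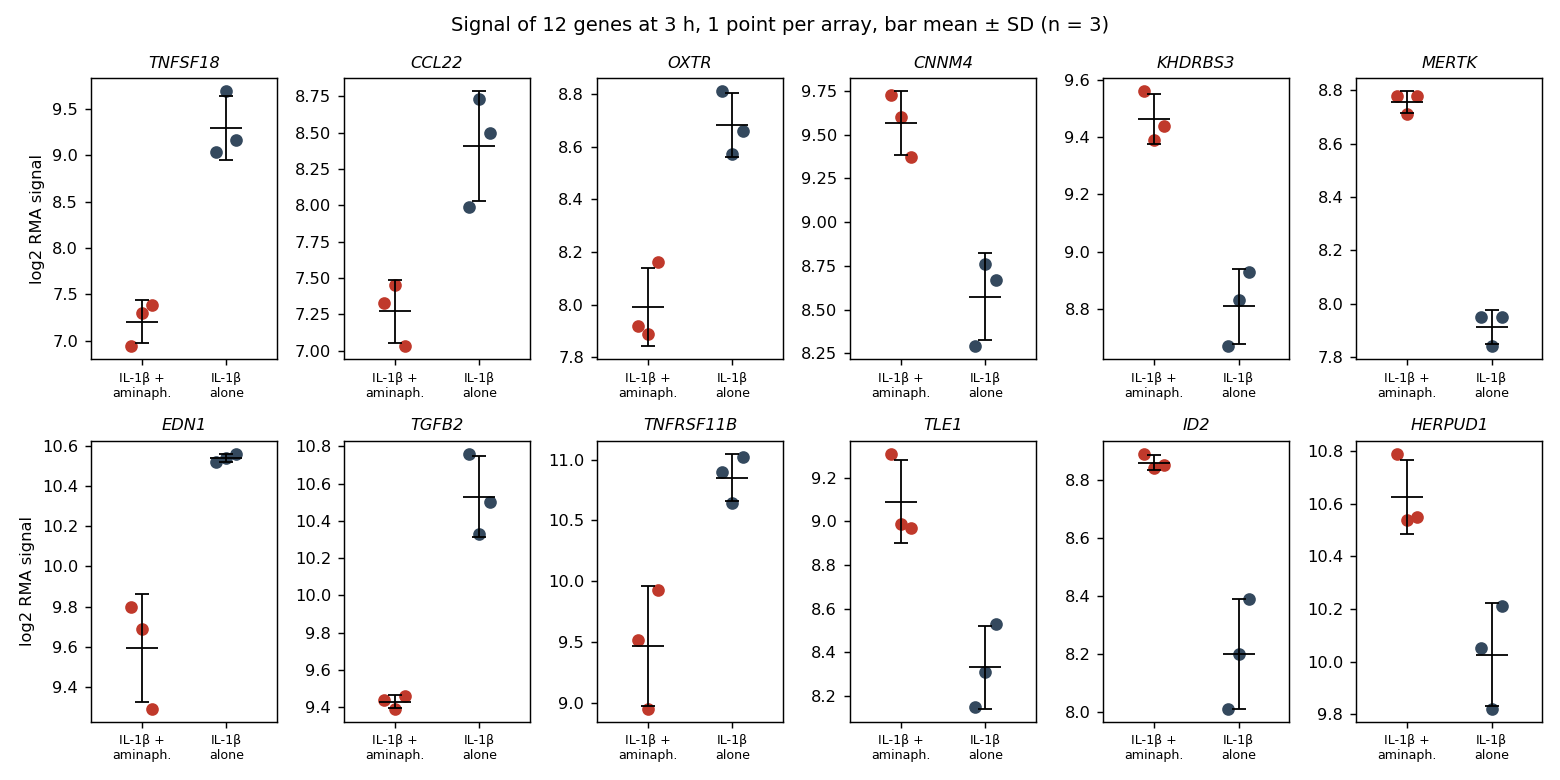
Log2 RMA signal (vertical axis, with its own range in each panel) of 12 genes at 3 h on the arrays with IL-1β and aminaphtone (left, red) and with IL-1β alone (right, blue). Each point is an array, and the bars give the mean ± SD of 3 arrays. In every panel the groups lie apart, with mean differences of -2.09 for TNFSF18 and 0.6 for HERPUD1. The first 6 genes are those called, and the others were named by a rule that required groups without overlap. Groups did not overlap in 12.6% of all transcript clusters tested.

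The directions of these 6 genes held in the 14 other settings tried and in the 18 fits that left out an array, but their calls depended on single arrays. With each of the 18 arrays left out in turn, TNFSF18 passed in 6 fits, CNNM4, CCL22 and OXTR in 5 each, KHDRBS3 in 4 and MERTK in 3, and the highest adjusted p was 0.262, without aminaphtone 3 h replicate 1. The log2 difference of TNFSF18 ran from -2.22 to -1.89 over these fits and that of CNNM4 from 0.86 to 1.1. In limma the count of 6 became 0 without any single aminaphtone array at 3 h, without replicate 2 or 3 of IL-1β alone at 3 h, without aminaphtone 1 h replicate 1 or 2, without replicate 1 of IL-1β alone at 6 h, and without any single aminaphtone array at 6 h. In those fits between 647 and 1258 transcript clusters had an unadjusted p under 0.05. The count became 1 without replicate 1 of IL-1β alone at 3 h or replicate 2 at 6 h, and 3 without replicate 3 at 6 h. It became 21 without replicate 1 and 48 without replicate 2 of IL-1β alone at 1 h, the group whose arrays correlated least with each other (0.889 to 0.963). At 3 h the arrays correlated at 0.9752 to 0.9919 within the aminaphtone group, at 0.9704 to 0.9867 within the group with IL-1β alone, and at 0.9662 to 0.9907 between the groups.

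**Figure D2:**
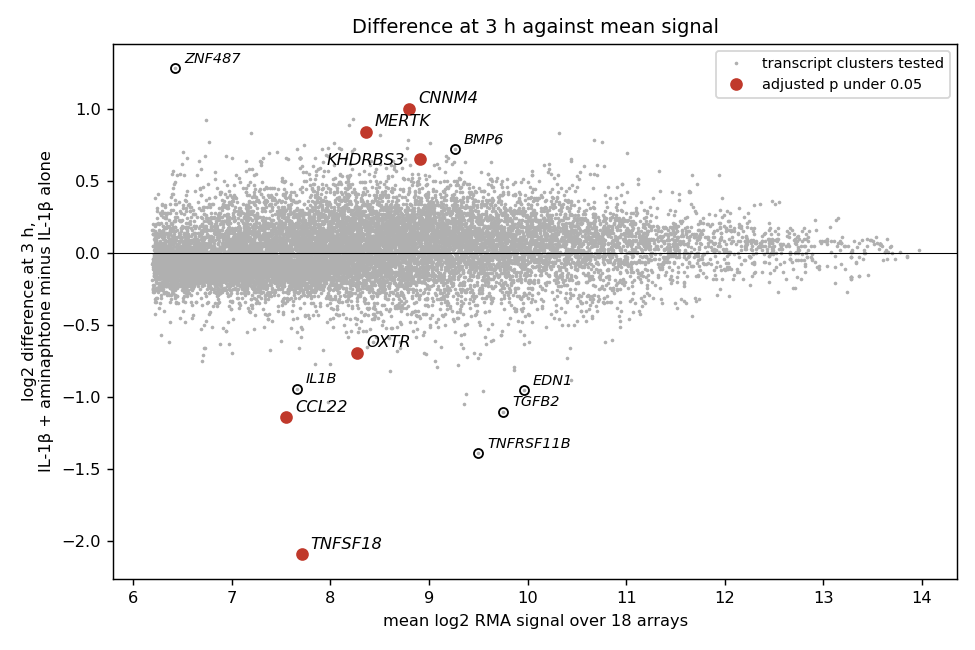
Log2 difference at 3 h, IL-1β with aminaphtone minus IL-1β alone (vertical axis), against the mean log2 RMA signal over 18 arrays (horizontal axis) for the 15796 transcript clusters tested, 1 point each. Red points are the 6 called genes, from TNFSF18 at -2.09 to CNNM4 at 1, and open circles mark further genes named in the text.

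The difference leaned with the brightness of the transcript clusters, as the plot of difference against mean signal shows. Ordered by mean signal into 4 equal groups of 3949, they had median differences of -0.06, -0.01, 0.05 and 0.06, dimmest first. Positive differences made up 31.2% of the dimmest group, 47.1% of the next, 60.5% of the third and 63.8% of the brightest. Dim gene classes lay on the low side too, with a median difference of -0.1 for 33 olfactory receptor genes and of -0.1 for 72 microRNA genes. The median over all 13805 genes was 0, and each list's median below is given with the brightness group of its median level, from 1 for the dimmest to 4 for the brightest. The part of brightness in any list's median was not tested. Beside each list's counts at an unadjusted p under 0.05 stand the shares of all genes tested, 4.95% higher and 1.44% lower.

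Among the TNF superfamily ligands and the chemokines, most members had negative differences, and 2 genes fell. Of the 9 TNF superfamily ligands tested, 1 fell, TNFSF18, and 0 rose (median difference -0.15, brightness group 2). TNFSF15, a TNF family cytokine, had 5.94, 6.09 and 5.72 with aminaphtone, against 6.19, 6.56 and 6.25 with IL-1β alone, which did not overlap but did not pass (log2 -0.42, limma adjusted p = 0.776). Of the 13 CC and CX3C chemokines, 1 fell, CCL22, and 11 had negative differences (median -0.1, brightness group 2). CX3CL1, the membrane-anchored chemokine fractalkine, had 8.98, 9.55 and 8.85 with aminaphtone, against 9.23, 10.19 and 9.66 with IL-1β alone, and these overlapped. Of the 8 CXC chemokines, 0 were called in limma and 7 had negative differences (median -0.07, brightness group 3), with 1 at an unadjusted p under 0.05. That gene was CXCL6, a neutrophil chemokine, with 7.84, 7.77 and 7.79 with aminaphtone, against 8.26, 8.15 and 8.26 with IL-1β alone (log2 -0.43, limma adjusted p = 0.602).

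Of the 16 interleukins and colony-stimulating factors tested, 0 were called in limma, 12 had negative differences and the median was -0.12 (brightness group 2). At an unadjusted p under 0.05, 6 were lower (37.5%) and 1 higher (6.25%), beside 1.44% lower and 4.95% higher of all genes tested. IL1B, the gene of IL-1β itself, had 8.08, 8.41 and 7.98 with aminaphtone, against 8.58, 9.46 and 9.25 with IL-1β alone. Its groups did not overlap, with a log2 difference of -0.94 (SE 0.258, limma adjusted p = 0.378). EBI3, a subunit shared by IL-27 and IL-35, had 9.08, 9.06 and 8.81 with aminaphtone, against 9.63, 9.71 and 9.99 with IL-1β alone. These values did not overlap either (log2 -0.79, SE 0.19, limma adjusted p = 0.201). IL36G, an IL-1 family cytokine of epithelia, lay between 6.21 and 6.27 with aminaphtone and between 6.56 and 6.72 with IL-1β alone. Positive differences were found in 4 of the 16, and the one with an unadjusted p under 0.05 was LIF, an IL-6 family cytokine, with 11.25, 11.58 and 11.11 with aminaphtone, against 10.44, 11.05 and 10.65 with IL-1β alone. Its difference of 0.6 did not pass (SE 0.175, limma adjusted p = 0.425).

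The abundant inflammatory products of IL-1β showed small differences, none of which passed. IL6 had 12.57, 12.77 and 12.54 with aminaphtone, against 12.58, 12.88 and 12.61 with IL-1β alone. CXCL8, the neutrophil chemokine interleukin-8, had 12.51, 12.79 and 12.79 with aminaphtone, against 12.67, 12.9 and 12.75 with IL-1β alone. In both genes the groups overlapped, and the 95% intervals of the log2 difference ran from -0.36 to 0.24 for IL6 and from -0.36 to 0.21 for CXCL8. The interval ran from -0.5 to 0.22 for CCL2, a monocyte chemokine, and from -0.43 to 0.68 for CCL5, a chemokine of T cells and monocytes. PTGS2, the inducible cyclooxygenase, had an interval from -0.47 to 0.3. The signs of IL6, CXCL8, CCL5 and PTGS2 turned when single arrays were left out.

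The receptors of the TNF family held one of the largest differences that did not pass. Of 20 tested, 0 were called in limma, with 2 higher and 2 lower at an unadjusted p under 0.05 (median -0.04, brightness group 3). TNFRSF11B, the decoy receptor osteoprotegerin, had 9.52, 8.95 and 9.93 with aminaphtone, against 10.9, 10.64 and 11.02 with IL-1β alone. Its groups did not overlap, but the aminaphtone arrays spread over almost 1 unit (log2 difference -1.39, SE 0.287, limma adjusted p = 0.124). TNFRSF11A, the receptor RANK whose ligand osteoprotegerin binds, had 8.16, 7.99 and 7.95 with aminaphtone, against 7.8, 7.61 and 7.86 with IL-1β alone (log2 0.28, limma adjusted p = 0.566).

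The NF-κB machinery itself showed no call. Of the 11 NF-κB subunits and IκB proteins, 0 passed in limma and 0 had an unadjusted p under 0.05 (median -0.07, range -0.4 to 0.13, brightness group 4). NFKBIA, the inhibitor IκBα, had 13.33, 13.44 and 13.29 with aminaphtone, against 13.08, 13.42 and 13.23 with IL-1β alone, and these overlapped. Of the 17 NF-κB feedback genes, 0 were called in limma (median 0, brightness group 3). Lower at an unadjusted p under 0.05 were 3 (17.6%) and higher 0, beside 1.44% and 4.95% of all genes. TRAF1, an adaptor of TNF receptors, had 9.36, 9.3 and 9.08 with aminaphtone, against 9.63, 9.98 and 9.88 with IL-1β alone. TNFAIP6, a hyaluronan-binding protein made in inflammation, had 7.49, 7.42 and 8.35 with aminaphtone, against 8.4, 8.57 and 8.59 with IL-1β alone. Neither gene's groups overlapped, although the highest TNFAIP6 value with aminaphtone came close to the lowest without it, and the adjusted p-values in limma were 0.391 for TRAF1 and 0.537 for TNFAIP6.

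Of 14 adhesion molecules, 0 were called in limma, with 1 higher and 0 lower at an unadjusted p under 0.05 (median 0.04, brightness group 2). ICAM1, an endothelial ligand of leukocyte integrins, had 13.23, 13.32 and 13.17 with aminaphtone, against 13.01, 13.14 and 13.11 with IL-1β alone. The aminaphtone arrays were the higher ones throughout, but the 95% interval of the difference ran from -0.1 to 0.41. SELE, the endothelial selectin, had 7.59, 6.86 and 7.77 with aminaphtone, against 6.97, 6.99 and 7.34 with IL-1β alone, with an interval from -0.06 to 0.67. VCAM1, another leukocyte receptor of endothelium, lay under the signal filter with a mean of 5.67 and was not tested. Of 15 integrin subunits, 0 were called in limma and 0 had an unadjusted p under 0.05 (median -0.05, brightness group 4).

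**Figure D3:**
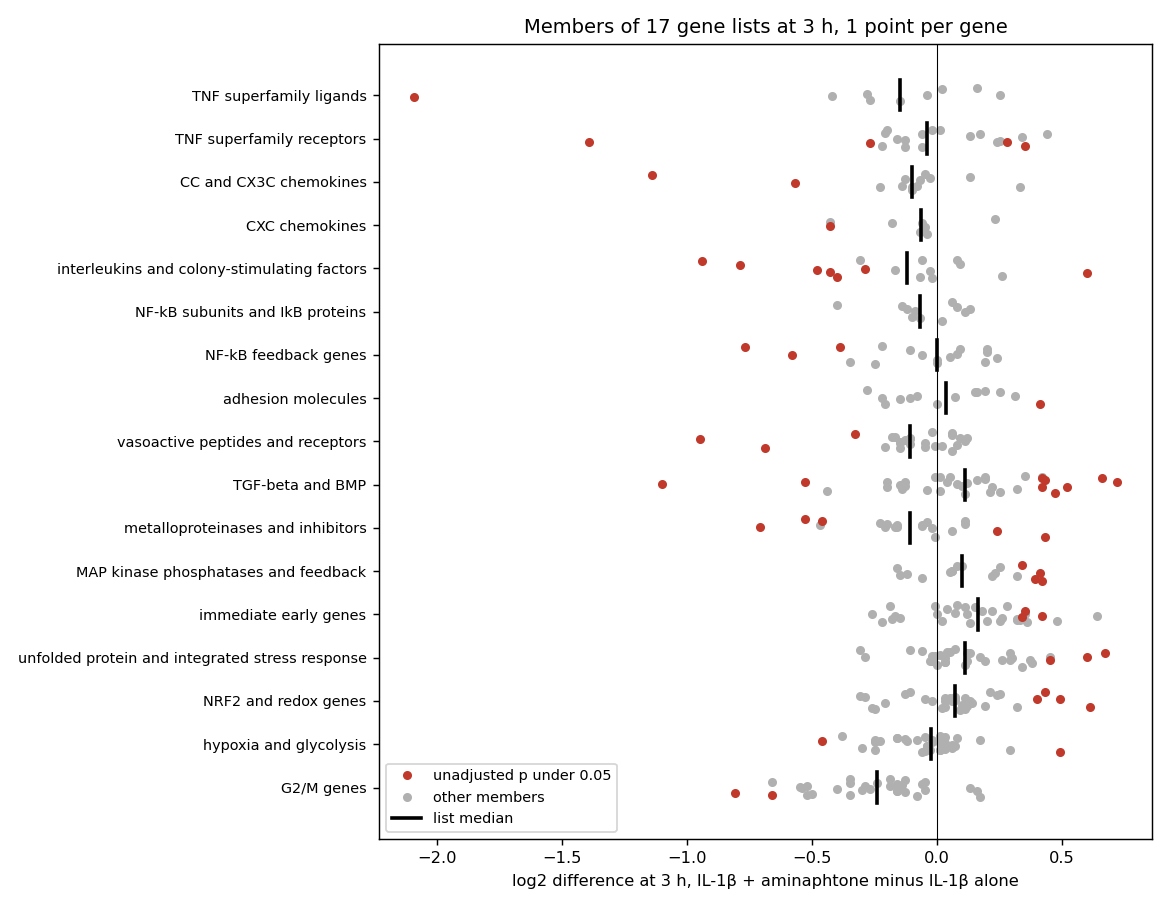
Log2 difference at 3 h, IL-1β with aminaphtone minus IL-1β alone (horizontal axis), for the members of 17 gene lists, 1 point per gene. Red points have an unadjusted p under 0.05 and black bars are list medians, which run from -0.24 for G2/M genes to 0.17 for immediate early genes.

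Among vasoactive peptides and their receptors the call was OXTR, and the endothelin genes had negative differences that did not pass. Of 25 tested, 1 fell, OXTR (median -0.11, brightness group 2). Lower at an unadjusted p under 0.05 were 3 (12%) and higher 0, beside 1.44% and 4.95% of all genes. EDN1, which encodes the constrictor peptide endothelin-1, had 9.8, 9.69 and 9.29 with aminaphtone, against 10.52, 10.54 and 10.56 with IL-1β alone. The arrays with IL-1β alone were almost identical, and every aminaphtone array lay below them. The log2 difference of -0.95 (95% interval -1.32 to -0.57) missed the threshold at 3 h (limma adjusted p = 0.0811). EDN2, the gene of endothelin-2, had 7.47, 7.45 and 7.22 with aminaphtone, against 8.01, 7.45 and 7.68 with IL-1β alone, and these touched at 7.45. VEGFA, an angiogenic and permeability factor, had 9.84, 10.24 and 9.76 with aminaphtone, against 10.05, 10.63 and 10.31 with IL-1β alone (log2 -0.38, 95% interval -0.77 to 0.01).

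TGF-β and BMP genes had members with small p-values in both directions, although 0 of 35 were called in limma. At an unadjusted p under 0.05, 7 were higher (20%) and 2 lower (5.71%), beside 4.95% and 1.44% of all genes (median 0.11, brightness group 3). TGFB2, a TGF-β ligand, had 9.44, 9.39 and 9.46 with aminaphtone, against 10.76, 10.33 and 10.5 with IL-1β alone. The aminaphtone arrays were tight and all lay below the others (log2 -1.1, 95% interval -1.52 to -0.67, limma adjusted p = 0.0806). FST, a secreted antagonist of activins and BMPs, had 6.46, 6.15 and 6.46 with aminaphtone, against 7.06, 6.64 and 6.95 with IL-1β alone. BMP6, a BMP ligand, ran the other way with 10.04, 9.92 and 10.06 with aminaphtone, against 9.23, 9.27 and 9.36 with IL-1β alone. ID2, an inhibitor of helix-loop-helix transcription factors and a common BMP target, had 8.89, 8.84 and 8.85 with aminaphtone, against 8.01, 8.2 and 8.39 with IL-1β alone. For both BMP6 (log2 0.72, limma adjusted p = 0.309) and ID2 (log2 0.66, limma adjusted p = 0.0972) the groups did not overlap.

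Of 20 matrix metalloproteinases, related proteases and inhibitors tested, 0 were called in limma, with 3 lower and 2 higher at an unadjusted p under 0.05 (median -0.11, brightness group 2). The 3 lower were MMP1, MMP3 and MMP10, and the 2 higher were the inhibitors TIMP2 and TIMP1. TIMP1 lies outside the naming rule and was chosen after its value was seen (log2 0.24, limma adjusted p = 0.702). MMP1, a collagenase, had 6.88, 6.7 and 7.02 with aminaphtone, against 7.27, 7.14 and 7.79 with IL-1β alone. MMP10, a stromelysin, had 7.01, 6.87 and 7.06 with aminaphtone, against 7.45, 7.33 and 7.55 with IL-1β alone. Both genes had lower values on every aminaphtone array, while those of MMP3, the other stromelysin, overlapped. TIMP2, an inhibitor of these enzymes, had 9.81, 10.05 and 9.47 with aminaphtone, against 9.08, 9.57 and 9.4 with IL-1β alone, also overlapping. The adjusted p in limma was 0.586 for MMP10, 0.591 for MMP3, 0.657 for MMP1 and 0.682 for TIMP2.

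Most feedback genes of the MAP kinases had positive differences, 13 of 17, in the brightness group where 63.8% of all transcript clusters did. Of the 17 MAP kinase phosphatases and feedback genes, 0 were called in limma (median 0.1, brightness group 4). Higher at an unadjusted p under 0.05 were 4 (23.5%) and lower 0, beside 4.95% and 1.44% of all genes. PHLDA1, a target of growth factor signalling, had 10.45, 10.55 and 10.46 with aminaphtone, against 10.08, 9.95 and 10.18 with IL-1β alone (log2 0.42, limma adjusted p = 0.138). SPRED2 and SPRY2, inhibitors of the RAS pathway, had differences of 0.39 and 0.34, and DUSP14, a dual-specificity phosphatase, one of 0.41. In these 4 genes, which were named for their small p-values, every aminaphtone array was above every array without it. This was so for 5 of the 17, and for 7.58% of all transcript clusters tested. Of 32 immediate early genes, 0 were called in limma (median 0.17, brightness group 4). Higher at an unadjusted p under 0.05 were 3 (9.38%) and lower 0, beside the same shares of all genes.

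Of 33 genes of the unfolded protein and integrated stress responses, which answer misfolded protein in the endoplasmic reticulum and amino acid shortage, 0 were called in limma. At an unadjusted p under 0.05, 3 were higher (9.09%) and 0 lower, beside 4.95% and 1.44% of all genes. The median was 0.11 (brightness group 4), and 9 of the 33 had negative differences. HERPUD1, a factor of protein degradation at the endoplasmic reticulum, had 10.79, 10.54 and 10.55 with aminaphtone, against 10.05, 9.82 and 10.21 with IL-1β alone (log2 0.6, limma adjusted p = 0.0932). CTH, the enzyme that makes cysteine from cystathionine, had 6.95, 6.87 and 6.85 with aminaphtone, against 5.99, 6.48 and 6.21 with IL-1β alone (log2 0.67, limma adjusted p = 0.18). DDIT3, the stress transcription factor CHOP, had 8.13, 7.97 and 8.1 with aminaphtone, against 7.47, 7.63 and 7.73 with IL-1β alone. None of these 3 genes, which were named for their small p-values, had overlapping groups. Higher without overlap were 6 of the 33, and 7.58% of all transcript clusters tested.

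Of 34 NRF2 and redox genes, 0 were called in limma (median 0.07, brightness group 4). Higher at an unadjusted p under 0.05 were 4 (11.8%) and lower 0, beside 4.95% and 1.44% of all genes. GCLC, the catalytic subunit of the enzyme that limits glutathione synthesis, had 7.86, 7.77 and 8.12 with aminaphtone, against 7.56, 7 and 7.37 with IL-1β alone. The groups did not overlap (log2 0.61, limma adjusted p = 0.566), while those of GCLM, its modifier subunit, and of SRXN1, sulfiredoxin, did. NQO1, a quinone reductase and NRF2 target, had 12.11, 12.14 and 12.07 with aminaphtone, against 11.74, 11.96 and 12 with IL-1β alone (log2 0.21, 95% interval -0.01 to 0.42). HMOX1, haem oxygenase and another NRF2 target, had 12.36, 12.26 and 12.07 with aminaphtone, against 12.42, 12.45 and 12.57 with IL-1β alone (log2 -0.25, 95% interval -0.57 to 0.07). So the values of these 2 targets lay on opposite sides of 0. Of 12 genes of the vitamin K cycle, whose cofactor shares the naphthoquinone ring, 0 were called in limma, and 1 had an unadjusted p under 0.05. That was GGCX, the γ-glutamyl carboxylase, with 9.03, 9.03 and 8.85 with aminaphtone, against 8.38, 8.75 and 8.77 with IL-1β alone (log2 0.34, limma adjusted p = 0.586).

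Cell division genes had mostly negative differences. Of 31 G2/M genes, 0 were called in limma and 28 had negative differences (median -0.24, range -0.81 to 0.17, brightness group 4). Lower at an unadjusted p under 0.05 were 2 (6.45%), beside 1.44% of all genes. DLGAP5, a spindle protein, had 8.91, 8.82 and 8.92 with aminaphtone, against 9.77, 9.55 and 9.32 with IL-1β alone. CENPF, a kinetochore protein, had 9.25, 8.85 and 9.52 with aminaphtone, against 10.29, 10.41 and 9.36 with IL-1β alone. Replicate 3 of IL-1β alone fell among the aminaphtone arrays for CENPF but not for DLGAP5 (log2 -0.66, limma adjusted p = 0.43). ECT2, a regulator of cytokinesis that the naming rule took by its p, had 9.77, 9.99 and 10.29 with aminaphtone, against 11.07, 10.88 and 10.76 with IL-1β alone (log2 -0.88, limma adjusted p = 0.337). Of 34 S phase genes, 0 were called in limma, and 26 had negative differences (median -0.07, brightness group 3).

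Genes of cell survival and of hypoxia had no call in limma. Among 16 BCL2 family genes, 11 had negative differences (median -0.06, brightness group 3). At an unadjusted p under 0.05, 1 was higher and 1 lower (6.25% each). BCL2L11, the pro-apoptotic protein BIM, had 8.47, 8.41 and 8.31 with aminaphtone, against 7.86, 7.55 and 8.07 with IL-1β alone (log2 0.57, limma adjusted p = 0.212). BBC3, the pro-apoptotic protein PUMA, had 9.18, 9.2 and 8.98 with aminaphtone, against 9.4, 9.47 and 9.4 with IL-1β alone (log2 -0.3, limma adjusted p = 0.686). The groups of both did not overlap, in opposite directions. Of the 16, 2 were higher and 2 lower without overlap, beside 7.58% and 4.99% of all transcript clusters tested. Of 27 p53 targets, 0 were called in limma, with 4 higher (14.8%) and 1 lower (3.7%) at an unadjusted p under 0.05, beside 4.95% and 1.44% of all genes (median 0.12, brightness group 3). Of 36 hypoxia and glycolysis genes, 0 were called in limma, with 1 higher and 1 lower at that p (median -0.03, brightness group 4). HK2, a hexokinase, had 8.5, 7.95 and 8.25 with aminaphtone, against 8.98, 8.31 and 8.78 with IL-1β alone. NDRG1, a stress and hypoxia gene, had 10.03, 10.2 and 9.91 with aminaphtone, against 9.12, 9.85 and 9.69 with IL-1β alone. Of 20 cholesterol synthesis genes, 27 interferon genes and 18 IL-1 receptor and Toll signalling genes, 0 were called in limma and 0 had an unadjusted p under 0.05.

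Further genes were named for small p-values and groups that did not overlap, and none of them passed. TLE1, a co-repressor of Notch and Wnt target genes, had 9.31, 8.99 and 8.97 with aminaphtone, against 8.15, 8.31 and 8.53 with IL-1β alone (log2 0.76, SE 0.135, limma adjusted p = 0.067). SAMD4A, a repressor of translation, had 10.05, 10.13 and 10.17 with aminaphtone, against 9.38, 9.52 and 9.53 with IL-1β alone (log2 0.64, limma adjusted p = 0.0677). EIF4EBP2, which holds back the cap-binding protein eIF4E, had 10.89, 10.97 and 10.68 with aminaphtone, against 10.16, 10.07 and 10.4 with IL-1β alone. All 3 lay just outside the threshold. FBXL20, an F-box protein of a ubiquitin ligase, had 8.14, 8.18 and 8.08 with aminaphtone, against 6.95, 7.25 and 7.4 with IL-1β alone (log2 0.93, limma adjusted p = 0.0811). ZNF487, a zinc finger gene, had 6.89, 6.6 and 7.17 with aminaphtone, against 5.79, 5.1 and 5.93 with IL-1β alone. It had the largest positive difference of all transcript clusters tested, 1.28, with an SE of 0.247 and an adjusted p of 0.0932 in limma at a dim mean level. PTCH1, the receptor of Hedgehog ligands, had 8.05, 7.63 and 7.82 with aminaphtone, against 7.02, 6.97 and 7.33 with IL-1β alone (log2 0.73, limma adjusted p = 0.105).

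TERF2IP, a telomere protein, ATG16L1, an autophagy factor, and TMEM41A, a membrane protein, had positive differences of 0.57, 0.5 and 0.56. On the negative side PTP4A3, a protein phosphatase, had 9.41, 9.7 and 9.11 with aminaphtone, against 10, 10.75 and 10.36 with IL-1β alone (log2 -0.96, limma adjusted p = 0.163). IGFL1, an insulin-like growth factor family ligand, had 7.5, 7.96 and 7.45 with aminaphtone, against 8.2, 9.11 and 8.7 with IL-1β alone (log2 -1.03, limma adjusted p = 0.194). CYP24A1, the hydroxylase that inactivates vitamin D, had 6.58, 6.53 and 6.5 with aminaphtone, against 7.1, 7.52 and 7.25 with IL-1β alone (log2 -0.75, limma adjusted p = 0.18). In all 3 genes, as the naming rule required, the lowest array without aminaphtone was above the highest with it. EVA1A, a gene of autophagy and apoptosis, AGAP2, a GTPase regulator, TGFB1I1, a focal adhesion protein, and CTPS1, a CTP synthase, had negative differences of -0.55, -0.66, -0.57 and -0.35.

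Set beside the other times, the genes that fell at 3 h had negative differences at 1 and 6 h too, and those that rose at 3 h had smaller differences at the other times. TNFSF18 had a log2 difference of -1.27 after 1 h, -2.09 after 3 h and -1.77 after 6 h, when it was called again (limma adjusted p = 0.0438). Without aminaphtone its mean was 7.78, 9.29 and 8.63 at these times, and with aminaphtone it stayed between 6.51 and 7.21. CCL22 had -0.44, -1.14 and -0.99 at the 3 times, with a call at 6 h (limma adjusted p = 0.0457). EDN1 had -0.84, -0.95 and -0.98, and of the 3 times it was called at 6 h (limma adjusted p = 0.0448). OXTR had -0.14, -0.69 and -0.4, with no call at 1 or 6 h. At 6 h 17 transcript clusters were called (0.108%), all lower, and 3.93% had an unadjusted p under 0.05. At 1 h 14 were called (0.0886%), with 0.0506% higher.

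CNNM4 had log2 differences of -0.15, 1 and 0.65 at the 3 times, and was called at 3 h alone. MERTK had 0.36, 0.84 and 0.4, and KHDRBS3 had 0.07, 0.65 and 0.4, likewise with their call at 3 h. TLE1 had -0.29, 0.76 and 0.19. TGFB2 had 0.25, -1.1 and -0.61. Whether a difference at 3 h was unlike that at another time was tested as the change of the difference itself. For the 6 called genes, TLE1 and TGFB2 that change did not pass against either time. The adjusted p in limma was 0.167 for the change from 1 h in CNNM4 and in TLE1.

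The change of the aminaphtone effect passed for 2 transcript clusters between 1 and 3 h (0.0127%) and for 2 others between 3 and 6 h (0.0127%), and none of these 4 genes was called at 3 h itself. At an unadjusted p under 0.05 the change from 1 h was positive in 7.64% of the transcript clusters and negative in 6.46%. PRDM1, a transcriptional repressor, averaged 6.87 with aminaphtone and 6.93 with IL-1β alone at 3 h, and 8.09 with aminaphtone and 9.39 with IL-1β alone at 1 h. MIDEAS, which belongs to a histone deacetylase complex, averaged 8.24 with aminaphtone and 7.99 with IL-1β alone at 3 h, and 9.87 with aminaphtone and 10.77 with IL-1β alone at 1 h. Both genes were lower with aminaphtone at 1 h, and at 3 h their differences were -0.06 and 0.26. BNIP3, a mitophagy receptor, averaged 10.42 with aminaphtone and 10.58 with IL-1β alone at 3 h, and 10.63 with aminaphtone and 11.97 with IL-1β alone at 6 h. PFKFB4, an enzyme that controls a glycolytic activator, averaged 7.13 with aminaphtone and 7.06 with IL-1β alone at 3 h, and 7.29 with aminaphtone and 8.71 with IL-1β alone at 6 h. Of the hypoxia and glycolysis list, 20 of 36 genes were lower at an unadjusted p under 0.05 at 6 h (median -0.38), and 1 was at 3 h (median -0.03). MYLIP, a ubiquitin ligase of the LDL receptor, had differences of 1.5, 0.6 and 0.17 at the 3 times. FOS, a subunit of AP-1, had 1.09, 0.02 and 0.11. The change from 1 h in MYLIP and FOS did not pass (limma adjusted p = 0.329 for MYLIP and 0.254 for FOS).

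**Figure D4:**
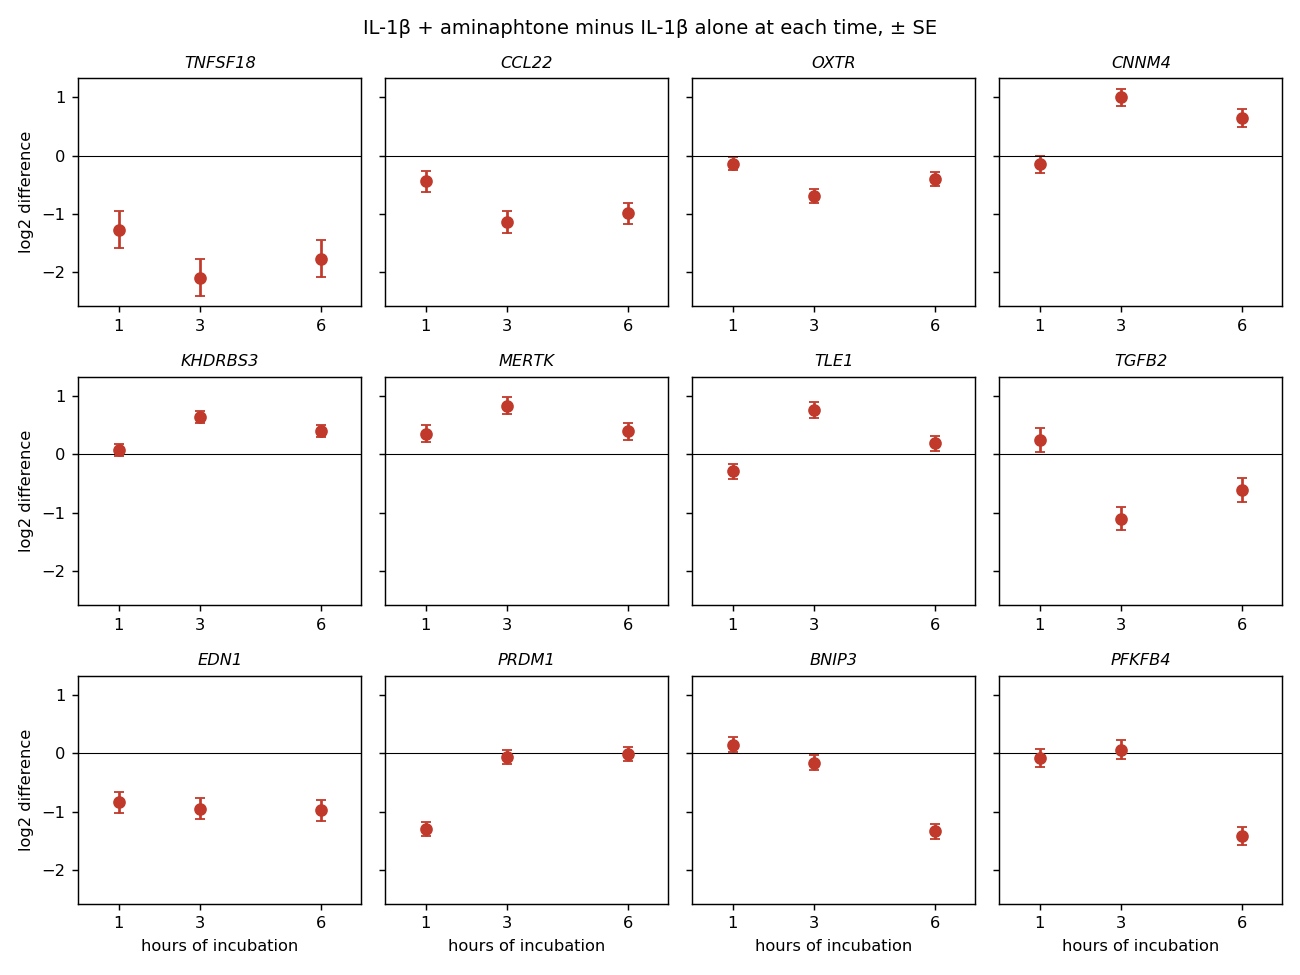
Log2 difference, IL-1β with aminaphtone minus IL-1β alone (vertical axis), after 1, 3 and 6 hours of incubation (horizontal axis) for 12 genes. Points are differences of group means of 3 arrays and bars their standard errors. TNFSF18 lies below 0 at all 3 times (-1.27, -2.09 and -1.77), CNNM4 lies above 0 at 3 and 6 h, and PFKFB4 lies near 0 until 6 h (-1.42).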

How the data were processed

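RNA from 18 cultures of ECV304 cells was hybridised to Affymetrix Human Gene 1.0 ST arrays, 3 arrays in each of 6 groups by treatment and time. The authors deposited log2 values made by RMA in Affymetrix Expression Console, per the submitters' processing notes, with a signal for each transcript cluster. The program's version, the arrays normalized together and the genome build are not given in the sources used here, so no array coordinates are printed. Promoter windows and their coordinates come from RefSeq (GRCh38.p14). Of 21062 transcript clusters with a gene annotation, the 15796 above the filter were tested, and 14481 of these have 1 symbol, for 13805 genes.

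The 6 group means were estimated together from the 18 arrays with limma 3.58.1 in R 4.3.3, which leaves 12 residual and adds 4.814 prior degrees of freedom. Tests were two-sided, with p-values adjusted by Benjamini and Hochberg over all transcript clusters tested and a threshold of 0.05. The calculation was tested on simulated data. Genes named are those called at 3 h, filled to 15 in each direction by p among genes whose groups do not overlap, up to 4 per gene list by p, a list of inflammatory and vascular genes, and 5 in each direction by p for the changes of effect. A list takes a gene's brightest transcript cluster, and its counts and medians are descriptions with no test. The marker means are over the log2 levels of the markers on the array. The members, lists and genes were chosen with earlier results of these data known. P-values measure the spread between samples labelled as independent replicates, pooled over the 6 groups. Those at 3 h, with their SEs and intervals, thus also carry the spread of the arrays of 1 and 6 h. Among these the arrays with IL-1β alone at 1 h correlated least with each other (0.889 to 0.963).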

Additional observations from a re-analysis of the deposited data

Results flagged for a closer look

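In 4 genes the aminaphtone effect at 3 h differed from the effect at another time by a test of the difference itself in limma. PRDM1 had a log2 effect of -0.06 at 3 h and of -1.3 at 1 h, a change of 1.24 (SE 0.173, adjusted p = 0.0232). MIDEAS had 0.26 at 3 h and -0.89 at 1 h, a change of 1.15 (SE 0.167, adjusted p = 0.0232). PFKFB4 had 0.06 at 3 h and -1.42 at 6 h, a change of 1.48 (SE 0.228, adjusted p = 0.0474). BNIP3 had -0.16 at 3 h and -1.34 at 6 h, a change of 1.18 (SE 0.183, adjusted p = 0.0474). The sign of PFKFB4 at 3 h turned under 2 alternatives.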

How the results depend on the processing

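The count of 6 transcript clusters called at 3 h became 1 with the 6 arrays of 3 h alone in the fit, 35 without the arrays of 1 h, 2 with each array centred on its median, 3 with a trended and robust variance and 2 with least squares without moderation. It became 727 with array weights, whose estimation stopped before it converged, and 358 with the first residual component, estimated from the same data, as a covariate. It lay between 5 and 6 without a filter, with the 50th percentile, with a filter on the 3 h arrays, with unannotated transcript clusters included and with quantile normalization repeated. The 2 changes of effect between 1 and 3 h became 1 with the trended variance, 8229 with weights and 4119 with the component. The 2 between 3 and 6 h became 1917 with weights and 6 with the component. They became 0 in limma without the 1 h arrays, without a filter, with the 50th percentile, with unannotated transcript clusters, with centring, with the trended variance and with least squares, where 102 to 308 had an unadjusted p under 0.05. Leaving out 1 array gave 0 to 48 calls at 3 h, 0 to 3967 changes from 1 h, the highest without replicate 1 of IL-1β alone at 1 h, and 0 to 3 changes from 6 h.

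Same-numbered replicates at 3 h had deviations that correlated at -0.106, 0.519 and -0.0106, and 2 of 6 arrays correlated best with their own number, so the numbers were not taken as pairing. With the replicate number as a block within each time the counts were 10 at 3 h, 6 for the change from 1 h and 0 for the change from 6 h in limma, where 268 had an unadjusted p under 0.05. Of the 10, 3 were among the 6 called without the block (TNFSF18, CCL22 and CNNM4). OXTR, KHDRBS3 and MERTK missed the threshold (limma adjusted p = 0.0549 each), and TGFB2, IGFL1, EDN1, TNFRSF11B and FBXL20 passed it (0.0358, 0.0361, 0.0499, 0.0499 and 0.0499). With the block on the 6 arrays of 3 h alone the count was 4, of which TNFSF18 was among the 6 and ZNF487, TNFRSF11B and TGFB2 were not. Another 2 alternatives, chosen after seeing the data, left out 2 arrays of 3 h. Without aminaphtone replicate 3 and replicate 2 of IL-1β alone, the arrays farthest out in their groups on the first residual component, limma gave 0 calls at 3 h, 2 changes from 1 h and 0 changes from 6 h, with 1420, 4132 and 322 at an unadjusted p under 0.05. Without aminaphtone replicate 3 and replicate 1 of IL-1β alone it gave 0 for all 3 counts, with 472, 2179 and 137 at that p.

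Signs turned for small differences. HILPDA had 0.03 with centring, and PFKFB4 -0.1 and ENO2 0.06 with array weights. Over the fits that left out arrays, values ran from -0.13 to 0.13 for HILPDA, with 0.12 among them, from -0.06 to 0.2 for PFKFB4, from -0.27 to 0.26 for ENO2, with 0.02, 0.05 and 0.12 among them, from -0.11 to 0.25 for FOS, with -0.05 and -0.02 among them, from -0.13 to 0.08 for IL6, with 0.03 among them, from -0.18 to 0.01 for PTGS2, from -0.32 to 0.13 for NFKBID, with 0.02 among them, from -0.11 to 0 for PRDM1, from -0.02 to 0.23 for CCL5 and from -0.17 to 0.02 for CXCL8. The causes were not tested. Dim genes such as VCAM1 could not be judged, and signal over background is unknown.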

Other observations

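Several gene groups outside the comparisons above held few small p-values at 3 h. Of 39 growth factor ligands and receptors, 1 rose, MERTK, with a median difference of 0.06 over the list (brightness group 3). Of 21 heat shock genes, 0 were called in limma and 1 had an unadjusted p under 0.05, DNAJB4, a co-chaperone, with a difference of 0.76 (limma adjusted p = 0.609). Of 33 nuclear genes of oxidative phosphorylation, 0 were called in limma, 3 were higher and 0 lower at that p, and 23 had positive differences. Of 63 ribosomal protein genes, 0 were called and 0 had an unadjusted p under 0.05 in limma, and 46 had positive differences. The median of the ribosomal list was 0.06. Both of these lists lie in brightness group 4, where 63.8% of all transcript clusters had positive differences and the median was 0.06 too. Of 25 mRNA decay regulators, 0 were called in limma and 2 were higher at that p, among them TOB1, an adaptor of deadenylation, with a difference of 0.5 (limma adjusted p = 0.474).

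The G2/M genes had a median difference of 0.6 at 1 h, with 20 of 31 higher at an unadjusted p under 0.05, of -0.24 at 3 h and of -0.25 at 6 h. At 1 h 30.8% of all transcript clusters had such a p in either direction, against 6.5% at 3 h and 3.93% at 6 h. The arrays with IL-1β alone at 1 h correlated least with each other of all groups (0.889 to 0.963). For DLGAP5 they had 9.81, 9.14 and 9.01, against 10.17, 9.8 and 9.78 with aminaphtone, so replicate 1 lay among the aminaphtone values. The part of this spread in the 1 h median was not tested. The median over S phase genes was 0.24 at 1 h, -0.07 at 3 h and -0.12 at 6 h.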
